A study of Danio rerio with 9 samples.

Results

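Cryptochromes and photolyases are flavin-binding proteins of a single family, and 8 of their zebrafish genes were named for description: cry1a, cry1b, cry2a, cry2b, cry3, cry4, cry5 and cry-dash. They were chosen by name with earlier results of these data known, using the gene names in the authors' own annotation. They were joined by Ensembl identifier to the table of expected counts. Names matched for 7 of the 8, which are 7 of the 33737 genes in that table, and cry3 was not matched and was not analysed here. All 7 had enough counts to be tested, as had 19875 genes in all.

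Photolyases use the energy of light to undo the lesions that ultraviolet light leaves in DNA. Their relatives the vertebrate clock cryptochromes have lost that activity, and with the period proteins they hold back the activator pair CLOCK and BMAL, which closes the feedback loop of the circadian clock. Many zebrafish tissues, the retina among them, sense light directly, and in zebrafish cells light induces transcription of cry1a and of the period gene per2. Placental mammals have lost the photolyases, and fish have kept them.

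RNA came from Müller glia, the radial glia that span the retina and from which zebrafish regrow lost neurons, sorted by fluorescence from dissociated neural retinas. All fish carried Tg(gfap:EGFP)mi2002, in which the promoter of the glial filament gene gfap drives green fluorescent protein, and were 8 to 11 months old. Control fish were unlesioned (0 hours post lesion, hpl), and the other fish swam freely in light of over 120000 lux for 30 min, a lesion, and gave retinas 8 or 16 hpl. Each time had 3 libraries with 11714633 to 26608088 expected counts, and the labels do not say whether they came from separate fish, so p-values cover only the spread between these libraries, which may be technical. These samples hold no unlesioned group matched to 8 or 16 hpl, and the sources used here give no hour of collection, so lesion, bright light and hour of day cannot be told apart.

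The libraries held RNA of other retinal cells beside that of Müller glia. The Müller glia genes gfap and rlbp1a were present in every library, at 60.2 to 168 CPM and 134 to 436 CPM, where CPM are counts scaled to library size with TMM factors (trimmed mean of M-values). Müller glia markers, 9 of 15 matched by name, summed to 1080 to 1806 CPM at 0 hpl, 1712 to 1958 CPM at 8 hpl and 1896 to 2206 CPM at 16 hpl. The rod opsin gene rho stood at 21248 to 72134 CPM. Rod markers, 15 of 17 matched by name, summed to 75047 to 122980 CPM at 0 hpl, 99421 to 103580 CPM at 8 hpl and 45472 to 78312 CPM at 16 hpl. Cone markers, 20 of 28 matched, summed to 4784 to 6544 CPM at 0 hpl, 2143 to 3392 CPM at 8 hpl and 1328 to 2351 CPM at 16 hpl, and the lesioned libraries lay below the unlesioned ones. Microglia and macrophage markers, 9 of 18 matched, summed to 18.5 to 31.4 CPM at 0 hpl, 14.7 to 18.0 CPM at 8 hpl and 15.4 to 16.2 CPM at 16 hpl. None of the rod or cone markers matched was at 0 in any library, and up to 3 of the microglia markers were at 0 in a library. Bipolar cell markers, 12 of 18 matched, summed to 3337 to 4055 CPM in 8 libraries and to 7999 CPM in 16 hpl replicate 2. The part of these cells in the results below was not tested, and in such bulk samples fewer cells of a type and less RNA per cell cannot be told apart.

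The early state after the lesion is addressed by comparing 8 hpl with 0 hpl. Nearly the whole family stood higher: 6 of the 7 genes rose (adjusted p under 0.05 over all genes tested), and cry1b did not pass. Of all tested genes 1.90% rose and 0.931% fell. The 6 were also those whose 3 libraries at 8 hpl lay above all 3 at 0 hpl, a separation that 13.9% of tested genes showed in this direction. The median log2 fold change of the 7 genes was 3.00, beside 0.02 over all tested genes.

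The photolyase-type genes started from very different levels, and values of a time are given below for replicates 1, 2 and 3 in that order. cry5 (ENSDARG00000019498) encodes the zebrafish (6-4) photolyase, which repairs 1 of the main classes of ultraviolet photoproduct. It had 113, 34.6 and 127 CPM at 8 hpl, against 2.41, 2.41 and 1.98 CPM at 0 hpl. The lowest 8 hpl library was thus still far above the highest unlesioned one. With an adjusted p of 0.000938, cry5 rose 40.2-fold (log2 fold change 5.33 ± 0.49, SE), the largest change in the family. Its size depended on which libraries were used: without the 3 outlying libraries (8 hpl replicates 1 and 3 and 16 hpl replicate 2, described below) it was 3.92. Outlying here means apart from the other libraries of the series, and at 8 hpl the outlying libraries are the majority. The fit without them has 1 library left at 8 hpl and no measure of the spread there, so only the size is given.

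cry-dash (ENSDARG00000002396) encodes a DASH cryptochrome, of a class known for repairing pyrimidine dimers in single-stranded DNA. Its values were 212, 172 and 212 CPM at 8 hpl, against 28.1, 26.7 and 19.9 CPM at 0 hpl. All 3 libraries at 8 hpl were close together here, unlike those of cry5. It rose 7.98-fold (log2 fold change 3.00 ± 0.26, adjusted p = 0.000720). It passed in each other fit that had a measure of the spread at 8 hpl.

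cry2a and cry2b encode clock cryptochromes that repress CLOCK and BMAL in zebrafish reporter assays, and a RefSeq gene table lists them as cry3a and cry3b. cry2a (ENSDARG00000069074) had 641, 262 and 643 CPM at 8 hpl, against 45.1, 51.6 and 60.6 CPM at 0 hpl. The groups did not overlap, although replicate 2 at 8 hpl was far below the others, and the log2 fold change was 3.30 ± 0.34 (adjusted p = 0.00146). Without the 3 outlying libraries it was 2.32.

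cry2b (ENSDARG00000091131) had 814, 648 and 776 CPM at 8 hpl, against 58.2, 71.4 and 107 CPM at 0 hpl. Here replicate 2 at 8 hpl was only slightly lower than the others. cry2b rose 9.46-fold (log2 fold change 3.24 ± 0.38, adjusted p = 0.00279).

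The cry1 pair did not move alike. cry1a (ENSDARG00000045768), a light-inducible repressor of CLOCK and BMAL, had 866, 714 and 925 CPM at 8 hpl, against 353, 359 and 379 CPM at 0 hpl. The libraries of each time lay close together. It rose 2.30-fold, the smallest of the 6 rises (95% interval of the log2 fold change 0.73 to 1.67, adjusted p = 0.0195), and the call ended when any 1 of the 3 libraries at 0 hpl, or replicate 1 or 3 at 8 hpl, was left out (adjusted p = 0.0735 to 0.119).

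cry1b (ENSDARG00000011583), the other gene listed with mouse Cry1 as its homolog, had 148, 257 and 173 CPM at 8 hpl, against 151, 145 and 93.4 CPM at 0 hpl. The groups overlapped, and the highest library was replicate 2 at 8 hpl, which was the lowest of its time for the other 6 genes. The log2 fold change of 0.57 ± 0.25 did not pass (adjusted p = 0.296), with a 95% interval of 0.01 to 1.13. In the fit without the 3 outlying libraries, where replicate 2 is the only library left at 8 hpl, it was 0.98.

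cry4 (ENSDARG00000011890) encodes a cryptochrome that does not repress CLOCK and BMAL in zebrafish reporter assays and was the member with the most uneven libraries at 0 and 8 hpl. It had 78.9, 21.1 and 82.5 CPM at 8 hpl, against 8.19, 6.70 and 13.2 CPM at 0 hpl. Replicate 2 at 8 hpl lay much nearer to the unlesioned libraries than to the other 2 of its time. The log2 fold change was 2.70 ± 0.50 (adjusted p = 0.0239). The call ended when any 1 of the 3 libraries at 0 hpl, or replicate 1 or 3 at 8 hpl, was left out (adjusted p = 0.0630 to 0.130). It also ended with limma voom (adjusted p = 0.0506). Without the 3 outlying libraries the log2 fold change was 1.17.

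**Figure D1:**
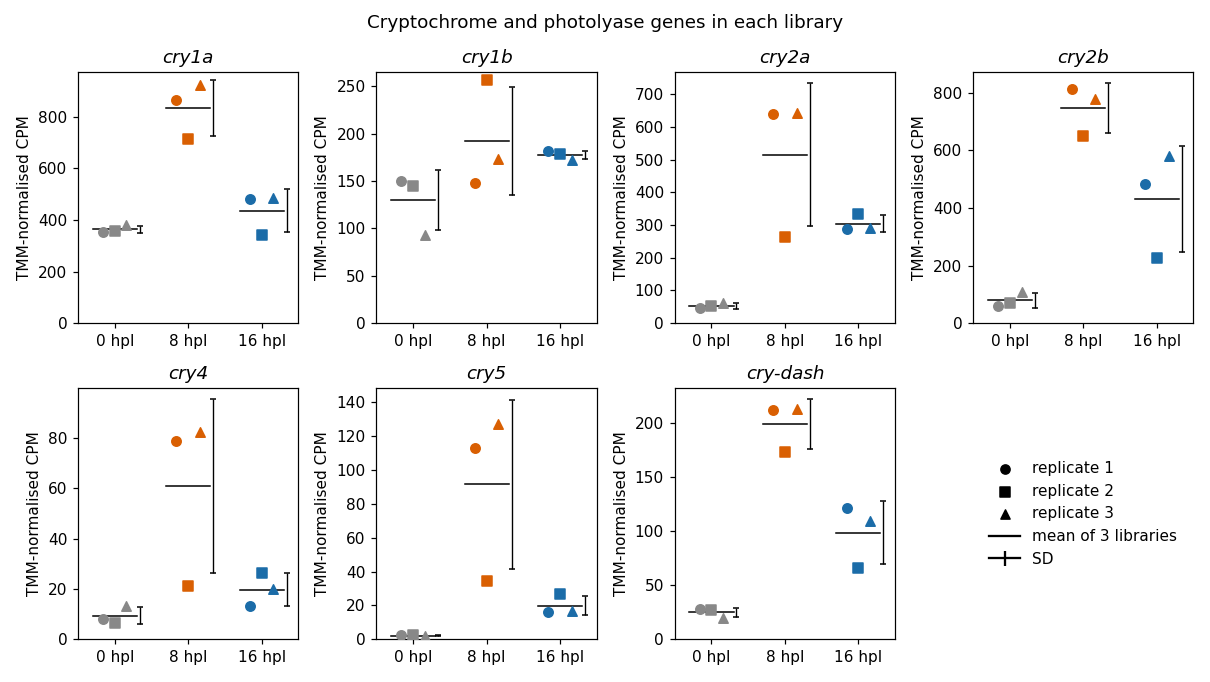
TMM-normalised CPM (vertical axes, from 0) of the 7 genes at 0, 8 and 16 hpl; each point is 1 library, its shape the replicate, the line the mean and the bar the SD of 3 libraries. Every gene but cry1b had all 3 libraries at 8 hpl above those at 0 hpl, and replicate 2 at 8 hpl lay far below the others for cry2a, cry4 and cry5.

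What remained later is addressed by comparing 16 hpl with 0 hpl, against the same unlesioned libraries. Of the 7 genes 4 rose, cry2a, cry2b, cry5 and cry-dash, and none fell, where 1.45% of all tested genes rose and 0.639% fell. Groups did not overlap for 5 of the 7, these 4 and cry1b, beside 10.8% of tested genes in this direction. The median log2 fold change of the 7 genes was 1.98, against 0.03 for all tested genes.

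cry2a was the most even of the 4, with 287, 335 and 291 CPM at 16 hpl (log2 fold change 2.54 ± 0.33, adjusted p = 0.00493). cry-dash had 121, 65.7 and 109 CPM at 16 hpl (1.98 ± 0.25, adjusted p = 0.00475). The calls for these 2 genes held in all 9 fits that leave out 1 library.

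cry2b had 484, 227 and 581 CPM at 16 hpl, all above its unlesioned libraries, with replicate 2 well below the others. Its log2 fold change was 2.45 ± 0.36 (adjusted p = 0.00911), and the call was lost when 0 hpl replicate 1 or 2 was left out (adjusted p = 0.0669 and 0.0575). cry5 had 16.4, 26.5 and 16.7 CPM at 16 hpl, and in this gene replicate 2 was the highest. Its log2 fold change was 3.13 ± 0.46 (adjusted p = 0.00802), or 8.74-fold, and the call was lost when 0 hpl replicate 1 or 3 was left out (adjusted p = 0.0569 and 0.0592) and with limma voom (adjusted p = 0.0653).

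The other 3 genes did not pass at 16 hpl. cry1a had 482, 342 and 485 CPM at 16 hpl, a range that overlapped the unlesioned libraries (log2 fold change 0.26 ± 0.21, adjusted p = 0.634). cry4 had 13.2, 26.3 and 19.9 CPM at 16 hpl, with replicate 1 at the level of the highest unlesioned library (1.08 ± 0.48, adjusted p = 0.333). cry1b had 182, 178 and 173 CPM at 16 hpl, which lay close together: 98.9% of the 12378 tested genes with a mean of at least 5 CPM had as wide a range. Its log2 fold change of 0.45 ± 0.25 gave an adjusted p of 0.454.

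Between 16 and 8 hpl, the comparison that asks how the response had moved on, all 7 log2 fold changes were negative and none passed in edgeR, where 0.0604% of tested genes were called higher and 0.0403% lower. At an unadjusted p under 0.05 there were 6 of the 7, all but cry1b, beside 2710 of the 19875 tested genes in either direction. DESeq2 called 4 (cry1a, cry4, cry5 and cry-dash), beside 668 of all genes, and limma voom called 0 of the 7. The 3 libraries at 16 hpl lay below all 3 at 8 hpl for 4 genes (cry1a, cry2b, cry5 and cry-dash), beside 8.31% of tested genes in this direction.

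cry5 had the largest difference between the lesioned times, a log2 fold change of −2.20 ± 0.42 (adjusted p = 0.105), with 16.4 to 26.5 CPM at 16 hpl against 34.6 to 127 CPM at 8 hpl. For cry4 it was −1.62 ± 0.48 (adjusted p = 0.198), for cry-dash −1.01 ± 0.25 (adjusted p = 0.129) and for cry1a −0.94 ± 0.21 (adjusted p = 0.112). cry2a and cry2b had −0.76 ± 0.31 and −0.79 ± 0.35 (adjusted p = 0.325 and 0.351), and cry1b −0.12 ± 0.25 (adjusted p = 0.890). Without 8 hpl replicate 2, edgeR called cry1a (−1.04, adjusted p = 0.0378), cry2a (−1.08, adjusted p = 0.0229), cry4 (−2.03, adjusted p = 0.0141) and cry5 (−2.59, adjusted p = 0.00218). Over all tested genes, leaving out each library in turn gave 0 to 677 calls in this comparison. Without the 3 outlying libraries, with 1 library left at 8 hpl, the changes were instead smaller for all but cry1b. They were −0.35 (cry4), −1.06 (cry5), −0.55 (cry1a), −0.58 (cry-dash), −0.27 (cry2b), 0.15 (cry2a) and −0.53 (cry1b). In a single test over the 3 times, 6 of the 7 genes passed, again all but cry1b (adjusted p = 0.00141 to 0.0319, and 0.383 for cry1b), as did 3.23% of all tested genes.

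**Figure D2:**
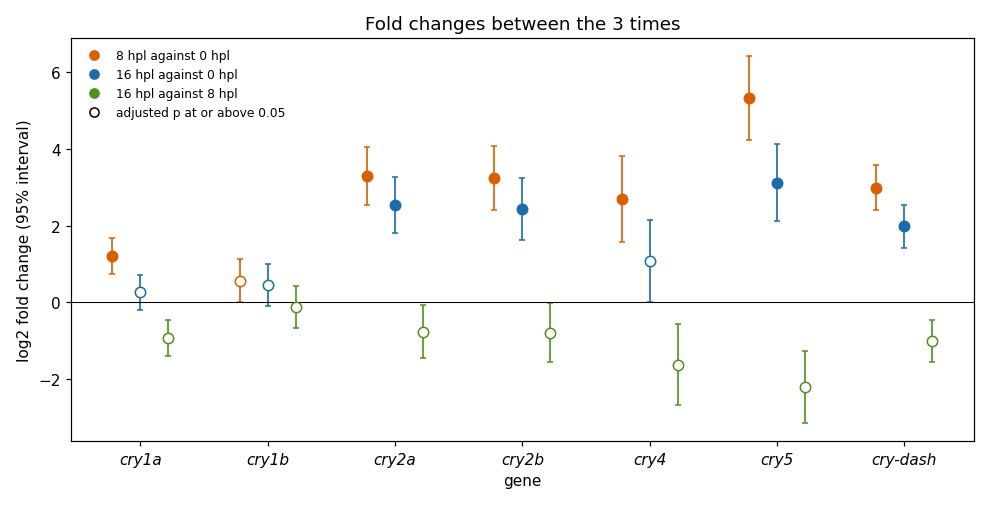
Log2 fold change (vertical axis) of the 7 genes in the 3 comparisons, with 95% intervals from the edgeR fit; filled points have an adjusted p under 0.05. cry5 had the largest value against 0 hpl at each time (5.33 and 3.13), and no gene passed between 16 and 8 hpl.

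Levels of different genes were compared in the deposited FPKM (fragments per kilobase of transcript, scaled to library size), which correct for length. At 0 hpl cry1a was by far the most abundant, at 153 ± 5.43 FPKM (SD, n = 3). cry1b (54.9 ± 12.8 FPKM) and cry2b (43.9 ± 14.7 FPKM) came next and overlapped, followed by cry2a (18.4 ± 2.95 FPKM) and cry-dash (15.5 ± 2.59 FPKM), which overlapped too. cry4 (5.67 ± 2.00 FPKM) and cry5 (1.22 ± 0.12 FPKM) were lowest, each apart from its neighbours.

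The order was another one in lesioned retinas. At 8 hpl cry2b led with 421 ± 54.2 FPKM, overlapping cry1a at 355 ± 43.8 FPKM. cry2a (177 ± 76.5 FPKM), cry-dash (123 ± 14.7 FPKM), cry1b (80.8 ± 23.6 FPKM), cry5 (48.8 ± 26.8 FPKM) and cry4 (35.2 ± 20.0 FPKM) each overlapped the next. At 16 hpl cry2b (237 ± 93.8 FPKM) and cry1a (188 ± 34.8 FPKM) again overlapped at the top, with cry2a next at 103 ± 11.7 FPKM, apart from cry1b (74.9 ± 2.60 FPKM) and cry-dash (61.4 ± 18.0 FPKM). cry4 (11.8 ± 3.75 FPKM) and cry5 (10.7 ± 3.14 FPKM) were lowest and overlapped.

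Summed over the 7 genes, the deposited FPKM came to 284, 291 and 302 in 0 hpl replicates 1, 2 and 3, to 1333, 999 and 1390 in 8 hpl replicates 1, 2 and 3, and to 736, 543 and 783 in 16 hpl replicates 1, 2 and 3, with no overlap between the times. cry1a made up 51.7% to 52.6% of that sum at 0 hpl, 27.1% to 30.9% at 8 hpl and 27.0% to 27.6% at 16 hpl. cry2b made up 11.1% to 19.9% at 0 hpl, 32.4% to 35.8% at 8 hpl and 24.1% to 39.3% at 16 hpl. The share of cry5 was 0.355% to 0.455% at 0 hpl, 1.83% to 4.93% at 8 hpl and 1.13% to 2.63% at 16 hpl.

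**Figure D3:**
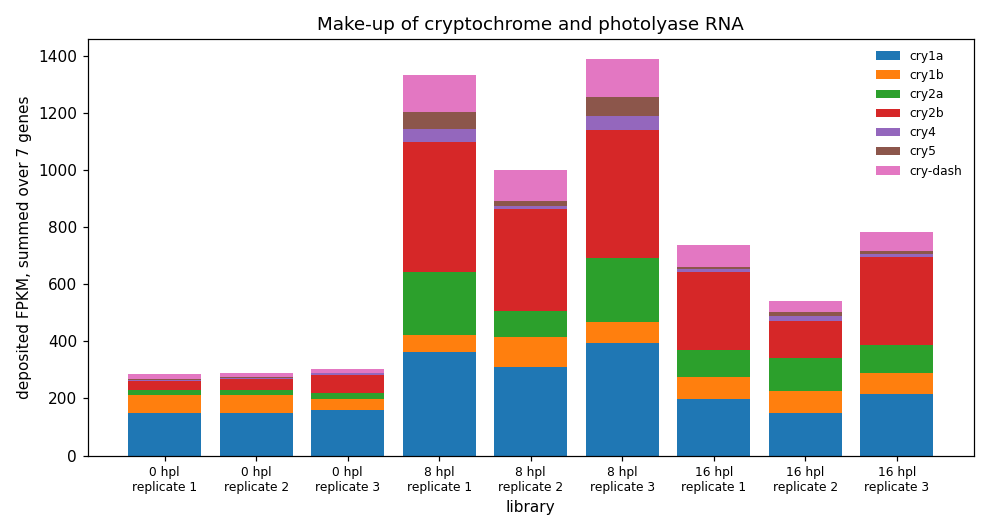
Deposited FPKM of the 7 genes, stacked for each of the 9 libraries (vertical axis, FPKM from 0). The bars reach 284 to 302 at 0 hpl, 999 to 1390 at 8 hpl and 543 to 783 at 16 hpl, and cry1a fills over 51% of each bar at 0 hpl.

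Within a time the genes did not all vary together. The first principal component (30.7% of the variance of log2 CPM) set off the 3 outlying libraries, 8 hpl replicates 1 and 3 and 16 hpl replicate 2, at 53.3, 63.5 and 92.2, beside −43.3 to −15.1 for the other 6. At 8 hpl the outlying libraries were the majority, and replicate 2, at −32.5, was the one apart from the others of its time. The genes fell into sets by how they followed that split, sets that were drawn after seeing the values. cry4, cry5 and cry2a in 8 hpl replicate 2 were at 0.262, 0.289 and 0.409 of the mean of the other 2 libraries of that time. In 16 hpl replicate 2 they were instead above the other 2, at 1.59, 1.60 and 1.16 times their mean.

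cry1a, cry2b and cry-dash lay below the others of their time in both of these libraries. They stood at 0.798, 0.815 and 0.813 of the mean of the other 2 in 8 hpl replicate 2, and at 0.708, 0.426 and 0.572 in 16 hpl replicate 2. cry1b was at 1.60 times that mean in 8 hpl replicate 2 and at 1.01 times in 16 hpl replicate 2.

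Of the clock genes, per1b and per2 differed widely in these libraries, and other clock genes did too. per1a had 24.2, 538 and 22.5 CPM at 8 hpl and 533, 95.6 and 665 CPM at 16 hpl. rorca went the other way, with 437, 27.3 and 398 CPM at 8 hpl and 17.3, 46.9 and 15.1 CPM at 16 hpl. Not every clock gene differed widely at both times. At 16 hpl per3 had 206, 210 and 257 CPM and clockb had 16.8, 16.5 and 19.1 CPM, with replicate 2 close to replicate 1. At 8 hpl replicate 2 did part from the others. There per3 had 132, 260 and 120 CPM, and clockb had 30.6, 18.8 and 28.1 CPM. per1b, a clock repressor gene whose RNA cycles over the day, was at 6.96 times the mean of the other 2 libraries in 8 hpl replicate 2 and at 0.273 of it in 16 hpl replicate 2, the reverse of cry4, cry5 and cry2a. The light-induced clock gene per2 was at 0.340 and 2.57 of that mean, on the side of those 3 genes. The unlesioned libraries were not uniform either. In 0 hpl replicate 3, per2 was at 2.57 and per1b at 0.622 of the mean of the other 2 libraries. There cry4, cry2b, cry2a and cry1a were at 1.77, 1.65, 1.25 and 1.07, and cry5, cry-dash and cry1b at 0.82, 0.73 and 0.63. The spread of cry4 and cry5 at 8 hpl was wide for this data set: the highest library was 3.91 and 3.67 times the lowest, and only 3.18% and 3.65% of those 12378 genes had as wide a range. At 0 hpl the range of cry5 was 1.22-fold, and 62.2% of those genes had as wide a one. That of cry4 at 0 hpl was 1.97-fold, and only 4.94% had as wide a one. The part of the hour of collection in this spread was not tested.

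**Figure D4:**
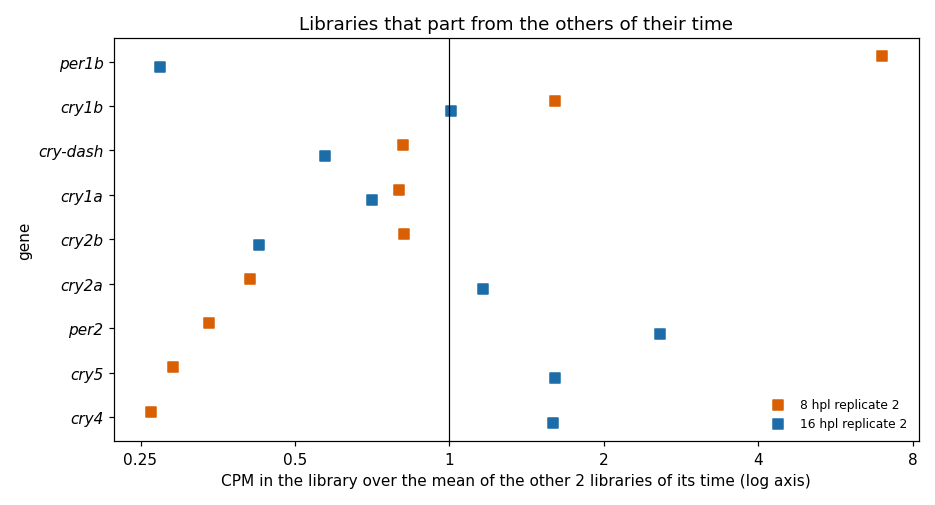
CPM in 8 hpl replicate 2 (orange) and 16 hpl replicate 2 (blue) over the mean of the other 2 libraries of the same time (log axis), for the 7 genes and the clock genes per1b and per2. cry2a, cry4, cry5 and per2 lie left of 1 in 8 hpl replicate 2 and right of 1 in 16 hpl replicate 2, and per1b lies on the opposite sides.

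Patterns most like each gene were looked up by Pearson's r of log2 CPM over the 9 libraries, among 9086 tested genes with a name and a mean of at least 5 CPM. These are descriptions without a test, since the libraries share their times and the nearest of so many genes is close in any case. Nearest to cry4 were npas2 and arntl1b, genes for a CLOCK relative and a BMAL protein, and the respiratory chain gene cyc1 (r = 0.992, 0.982 and 0.977). Nearest to cry5 were the biliverdin reductase gene blvra, the vesicle coat gene sec24d and wdr24 (r = 0.994, 0.991 and 0.987). blvra was also near cry2a (r = 0.983), after fus, for an RNA-binding protein, and fam213b (each r = 0.984).

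The 3 genes that lay low in both replicate 2 libraries had other neighbours. cry-dash was nearest to dhrs12, to csnk1e, for a casein kinase that acts on period proteins, and to the amino acid transporter gene slc38a3a (r = 0.995, 0.985 and 0.974). cry2b was nearest to the histone methyltransferase gene dot1l, to csnk1e and to rbms2a (r = 0.982, 0.976 and 0.974). For cry1a they were lonrf1, naglu, for a lysosomal enzyme, and the ephrin receptor gene ephb2a (r = 0.987, 0.976 and 0.973). For cry1b they were the homeobox gene vax1, hspa12b and the prostaglandin synthase gene ptgs2a (r = 0.972, 0.931 and 0.929).

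Genes that work with this family were counted in lists. Over all tested genes, 1.90% rose and 0.931% fell at 8 hpl against 0 hpl (median log2 fold change 0.02), and 1.45% rose at 16 hpl against 0 hpl. Of 24 tested clock genes (period genes, clock activators, Ror and Rev-erb receptors, bhlhe40, bhlhe41, ciarta, ciartb, timeless and tipin), 6 rose at 8 hpl against 0 hpl and none fell. The median log2 fold change of this list was 0.54, and none of it was called at 16 hpl against 0 hpl. Those with the smallest adjusted p were per2 (4.66 ± 0.66, adjusted p = 0.00665), clockb (1.41 ± 0.23, adjusted p = 0.0137), npas2 (3.48 ± 0.68, adjusted p = 0.0288) and arntl1b (3.36 ± 0.68, adjusted p = 0.0319). The other 2 were clocka and arntl1a. All 6 calls ended without 1 or more single libraries, that of per2 without 0 hpl replicate 2 (adjusted p = 0.0527). Without the 3 outlying libraries the log2 fold change of arntl1b was 1.26. That fit has no measure of the spread at 8 hpl, so no call is given from it for npas2 or arntl1b.

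Of 11 tested genes for PAR bZIP, Nfil3 and Atf4 factors, of which the PAR bZIP and Nfil3 proteins bind the D-box element, 2 rose at 8 hpl against 0 hpl (median 0.05, beside 0.02 and 1.90% rising over all tested genes) and none was called at 16 hpl against 0 hpl. nfil3 had 449, 35.9 and 462 CPM at 8 hpl, against 7.22, 9.12 and 6.85 CPM at 0 hpl. It thus shared the low replicate 2 of cry4 and cry5 (5.35 ± 0.83, adjusted p = 0.0109), and without the 3 outlying libraries its log2 fold change was 2.21. nfil3-2 also rose (4.38 ± 0.98, adjusted p = 0.0447), but its groups overlapped, and without those 3 libraries the value was 0.73. Both calls ended without any 1 of the 0 hpl libraries, and that of nfil3-2 held in only 3 of the alternative fits.

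Among 31 tested genes of nucleotide excision repair and other repair of ultraviolet damage, 3 rose at 8 hpl against 0 hpl and none fell, beside 1.90% and 0.931% of all tested genes. The median of the list was 0.08, beside 0.02 over all tested genes. xpc, for the protein that finds distorted DNA in excision repair, had 41.6, 17.0 and 40.7 CPM at 8 hpl, against 4.58, 3.71 and 4.65 CPM at 0 hpl. Its groups were well apart (2.94 ± 0.36, adjusted p = 0.00333), and it passed in each other fit that left more than 1 library at 8 hpl. Without the 3 outlying libraries its log2 fold change was 1.98.

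ddb2, for a sensor of ultraviolet lesions, was the gene of this list that rose at each time, with 1.71 ± 0.25 at 8 hpl and 1.47 ± 0.25 at 16 hpl (adjusted p = 0.00860 and 0.0171). It had 38.1, 59.8 and 32.8 CPM at 8 hpl and 39.0, 31.0 and 40.4 CPM at 16 hpl, against 15.4, 11.3 and 13.4 CPM at 0 hpl. Unlike cry5 and xpc, ddb2 was highest in replicate 2 at 8 hpl. Leaving out 0 hpl replicate 2 ended both calls (adjusted p = 0.0565 and 0.0996), and that at 16 hpl also without 3 other single libraries. The centrin gene cetn4 rose at 8 hpl (1.15 ± 0.21, adjusted p = 0.0207), a call that ended without any 1 of the 0 hpl libraries.

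Of 16 tested genes for ligases and kinases that act on cryptochrome or period proteins, csnk1e was the only one called, at 8 hpl against 0 hpl (0.76 ± 0.16, adjusted p = 0.0339), where 1.90% of all tested genes rose. The median of the list was −0.12, beside 0.02 over all tested genes. With 1 call each, this list and the next are too short to set against that share. Of 4 tested genes of riboflavin uptake and FAD synthesis, flad1, for the enzyme that makes the flavin cofactor FAD, rose at 8 hpl (2.99 ± 0.51, adjusted p = 0.0171; median of the list 0.66). flad1 had 128, 29.6 and 138 CPM at 8 hpl, against 10.6, 13.4 and 13.1 CPM at 0 hpl, again with replicate 2 lowest at 8 hpl. Neither list had a call at 16 hpl against 0 hpl, and the calls of csnk1e and flad1 ended without any 1 of the 0 hpl libraries. Without the 3 outlying libraries, the log2 fold change of flad1 was 1.25. Between 16 and 8 hpl none of these 5 lists had a call in edgeR.

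In the authors' deposited table, whose header names no comparison group, log2 fold changes at 8 hpl were 5.59 for cry5, 3.63 for cry2a, 3.50 for cry2b, 3.23 for cry4, 3.03 for cry-dash, 1.30 for cry1a and 0.25 for cry1b. The authors' deposited table gives 2.85, 2.54, 2.80, 0.86, 2.14, 0.40 and 0.40 for the same genes in that order at 16 hpl. Its adjusted p-values were under the threshold for all but cry1b at 8 hpl, and for all but cry1b and cry4 at 16 hpl. The call that differs from the edgeR fit is cry1a at 16 hpl, with an adjusted p of 0.0496 in the authors' deposited table.

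Reads that fit several genes are split by the counting method, and expected counts are then not whole numbers. They were whole (within 0.001) in 9 of 9 libraries for cry-dash and in 8 of 9 for cry5, in 5 for cry1b, 2 for cry2a, 1 for cry4 and 0 for cry1a and cry2b. Such fractions cannot be assigned with certainty, and which genes shared the reads was not traced. In a RefSeq table of another assembly than the one the counts rest on, the span of cry4 overlaps that of dennd2db. That of cry1a overlaps btbd11a and that of cry5 overlaps foxred1, which matched no row. The span of cry1b overlaps 2 loci that carry only an identifier there. dennd2db stayed at 0.474 to 4.88 CPM, and btbd11a stood at 35.7 to 42.3 CPM at 8 hpl against 73.3 to 95.6 CPM at 0 hpl (log2 fold change −1.09 ± 0.35, adjusted p = 0.143), opposite in sign to cry1a. The same table places cry2b and cry4 close together, with 2 annotated genes starting between them, although in 16 hpl replicate 2 these neighbours lay on opposite sides of the other libraries.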

How the data were processed

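Stranded single-end RNA-seq libraries of sorted Müller glia, 3 at each of 0, 8 and 16 hpl, were processed by the authors. The submitters' processing notes name RSEM 1.2.22, Bowtie2 2.2.6, Trim Galore 0.2.7, limma 3.24.15, edgeR 3.10.2, FastQC 0.10.1, cutadapt 1.4.2 and the build Zv9, without role or order. The deposited expected counts are RSEM estimates per Ensembl gene, not normalized. The deposited FPKM are called normalized by the file name, by a method the sources used here do not state. The authors' table holds log2 fold changes, average log2 values, p-values and limma scores, per the file headers. The sources used here do not say whether counting used strand.

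Expected counts were rounded and fitted for all genes with edgeR 4.0.16 in R 4.3.3 (filterByExpr by group, TMM factors of 0.873 to 1.07, robust dispersions, quasi-likelihood F test, 9 libraries in 1 fit with 6 residual degrees of freedom). Tests were two-sided, with p-values adjusted by Benjamini-Hochberg over the 19875 genes that passed the filter, at a threshold of 0.05. Standard errors are the size of the log2 fold change divided by the root of F. CPM use TMM-scaled totals, and likeness uses log2 CPM with a prior count of 2. The fit was tested on simulated counts that varied independently between libraries, which cannot show how it handles the split seen here. Alternatives were RLE factors, no filter, DESeq2 1.42.0, limma voom (limma 3.58.1), only the 2 groups compared, the replicate number as a block, and each library left out. A fit without the 3 outlying libraries was chosen after seeing the data.

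The members and lists were chosen with earlier results of these data known. Named were all members, the 3 genes most like each, and up to 4 called genes of each list per comparison, with the remaining called list genes added after their values were seen, as were the genes overlapping a member. The authors' table named 12581 genes, and a gene name table supplied the rest where it had them. The sheet with mouse homologs was used only for those names.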

Additional observations from a re-analysis of the deposited data

How the results depend on the processing

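Of 336 log2 fold changes of the 7 genes under an alternative, 306 kept their direction and their side of the threshold, 19 lost a call, 9 gained 1 and 2 turned round. These include the fit without the 3 outlying libraries, which has no measure of the spread at 8 hpl. Those that turned, neither of them called, were cry1b and cry2a at 16 against 8 hpl. The value of cry1b was 0.14 without 8 hpl replicate 2 (adjusted p = 0.795), where leaving out each library gave −0.29 to 0.14. That of cry2a was 0.15 without the 3 outlying libraries. Leaving out each library in turn, 4 to 6 of the 7 genes were called at 8 against 0 hpl, 2 to 4 at 16 against 0 hpl (2 without 0 hpl replicate 1), 0 to 4 at 16 against 8 hpl and 4 to 6 over the 3 times. DESeq2 called 4 of 7 at 16 against 8 hpl, where edgeR called 0. The cause of these changes was not tested.

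Same-numbered libraries did not deviate together (r of deviations from group means −0.425 to 0.118 over genes). The labels do not say whether the numbers mark a shared batch, and these values cannot decide it. With the replicate block, 4 members were called at 8 against 0 hpl (6 without it, with cry1a and cry4 lost at adjusted p = 0.0658 and 0.0754), 4 at 16 against 0 hpl, 0 at 16 against 8 hpl and 4 over the 3 times. Counts over all genes also moved between fits. At 8 against 0 hpl they were 563 genes, but 1391 by DESeq2, 1008 in the 2 groups alone and 147 with the block. At 16 against 0 hpl they were 415, but 1176 by DESeq2, 168 with the block and 1586 without the 3 outlying libraries. At 16 against 8 hpl they were 20, but 668 by DESeq2, 44 without a filter and 0 in the 2 groups alone or with the block. Over the 3 times they were 641, but 2033 by DESeq2, 406 by limma voom and 183 with the block. Leaving out each library gave 95 to 1320, 103 to 661, 0 to 677 and 115 to 1549 genes in these 4 tests. Depth limits cry5 at 0 hpl, with 37 to 54 expected counts a library.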
